A study of Mus musculus with 70 samples.

Results

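The insulin-like growth factor (IGF) system consists of secreted ligands, cell-surface receptors and secreted binding proteins. The ligand IGF1 acts through the receptor tyrosine kinase IGF1R and onward through AKT and MAP kinases, whereas IGF2R, the cation-independent mannose-6-phosphate receptor, takes up IGF2 for degradation and has no kinase. Binding proteins (IGFBPs) hold IGFs in the extracellular space and set how much ligand reaches the receptor. Growth hormone (GH) from the pituitary induces IGF1 in liver and other tissues, and circulating IGF1 in turn restrains GH secretion by the pituitary. The 9 genes described here are the ligand Igf1, the receptors Igf1r and Igf2r, and the binding proteins Igfbp2, Igfbp3, Igfbp4, Igfbp5, Igfbp6 and Igfbp7. They were taken by symbol, each by its transcript with the highest mean level, out of 22835 gene symbols in the pituitary RNA table. All 9 passed the limit of 1 CPM (read counts scaled to an equal library total) in each of the 18 RNA libraries, as did 13145 genes in all.

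The study asked how triiodothyronine (T3), the active thyroid hormone, and its receptor TRβ, encoded by Thrb, control genes and chromatin in the mouse pituitary gland. RNA was measured in C57BL/6J adult males of 2 to 4 months, wild type or Thrb-deficient (Thrb-KO), and each library pooled 3 pituitaries. All 4 RNA groups drank methimazole (MMI, 0.05%) with potassium perchlorate (1%) for 4 to 5 weeks, drugs that block thyroid hormone synthesis, and the hyperthyroid (T3) groups also had 0.5 µg/ml T3 in the water during the last 1 week. There were 4 hypothyroid (MMI) and 4 hyperthyroid wild-type libraries, and 5 hypothyroid and 5 hyperthyroid Thrb-KO libraries. No untreated animals were among the RNA groups, so each T3 difference is between T3 given with MMI and MMI alone. TRβ binding was mapped in untreated mice by streptavidin pull-down of biotin-tagged receptor (ChAP-seq), from 3 libraries of 12 pooled pituitaries of ThrbHAB/HAB; Rosa26BirA/BirA (HAB) mice and 3 titled as Rosa26BirA/BirA (BirA) controls, and by as many libraries in cerebral cortex. The genotype label of these BirA libraries also names the HAB allele, against their titles, so the BirA reads, folds and FDR below rest on the titles. Regions whose accessibility differed between hypothyroid and hyperthyroid mice came from ATAC-seq, an assay of open chromatin, in 4 against 4 samples of nuclei purified through a Rosa26Sun1-GFP; Thrb2-Cre label. These ATAC regions therefore describe Thrb2-expressing pituitary cells, whereas the RNA came from whole pituitary, in which fewer cells of a type and less RNA per cell cannot be told apart. The ChAP-seq and ATAC-seq mice were also males of 2 to 4 months, but on mixed strain backgrounds per the paper. The ATAC-seq mice had the same MMI, perchlorate and T3 doses and times as the RNA groups.

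Recovered read counts summed over all transcripts to 21453548 to 55273749 per library, in which reads shared by transcripts can count more than once. The lowest member value, in Igfbp6, held 60 reads. Replicates 1 and 2 of each group formed a set apart from replicates 3 to 5, with Lars2 at 2571 to 3420 CPM against 53.2 to 95.1 CPM. Each T3 change of a member that passed the test is therefore given within both sets, and changes of other genes are not. Hyperthyroid wild-type replicate 3 stood apart with the highest share of Gh in its summed counts (15.9%). Thrb RNA was no lower in Thrb-KO libraries (270.8 ± 20.1 CPM, SD, n = 5) than in wild-type libraries (256.7 ± 27.3 CPM, n = 4) under MMI. With T3 it was at 72.4 to 123.5 CPM in wild type (mean 104.1) and 228.1 to 300.5 CPM in Thrb-KO (mean 260.2), a wild-type log2 change of -1.32 (limma adjusted p = 1.27e-06) and a difference between genotypes of 1.33. Reads over the whole Thrb transcript thus did not check the genotype labels, and whether they cover the altered exons was not tested.

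The sequences below are the TRβ peaks that the chromatin results turn on, read from the plus strand of mouse build mm9. The first lies inside a coding exon of Igf1. The second is the part of the strongest peak inside Igf1r that holds a direct repeat of the receptor half-site AGGTCA with a 4 base spacer (DR4), and the third is the other Igf1r peak that overlapped a T3-regulated ATAC region. The fourth is the part of a cortex peak in Igfbp7 that holds the closest DR4 match among the members. Capitals mark the half-sites where at least 10 of 12 bases matched, on either strand.
Igf1 pituitary peak, chr10:87376401-87376500: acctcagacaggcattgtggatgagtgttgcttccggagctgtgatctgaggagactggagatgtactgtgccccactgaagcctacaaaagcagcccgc
Igf1r pituitary peak, intron 15, chr7:75348236-75348335: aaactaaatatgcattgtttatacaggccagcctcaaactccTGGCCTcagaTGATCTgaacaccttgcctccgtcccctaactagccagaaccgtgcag
Igf1r pituitary peak, intron 20, chr7:75368251-75368550: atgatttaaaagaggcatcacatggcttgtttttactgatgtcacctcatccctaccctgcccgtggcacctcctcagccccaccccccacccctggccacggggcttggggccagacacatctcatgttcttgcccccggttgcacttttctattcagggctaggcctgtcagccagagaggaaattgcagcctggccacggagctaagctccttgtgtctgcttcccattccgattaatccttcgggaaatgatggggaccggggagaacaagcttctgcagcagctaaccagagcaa
Igfbp7 cortex peak, intron 2, chr5:77792940-77793039: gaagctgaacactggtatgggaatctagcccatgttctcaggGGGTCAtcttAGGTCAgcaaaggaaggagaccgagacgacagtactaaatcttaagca

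In wild-type pituitary, T3 raised Igf1 and lowered Igf2r and Igfbp3, and the other 6 members did not pass the test. The test was limma on log2(CPM + 1), with a call where the Benjamini-Hochberg adjusted p was below 0.05 and the change at least 1.5-fold. One of 9 members was thus called higher with T3, where 3.87% of all genes tested were, and 2 were called lower, where 5.59% were. The balance of directions over all genes depends on the scaling, with 509 called higher and 735 lower here but 674 and 539 with CPM divided by TMM factors and 702 and 696 by edgeR. The 3 member calls kept their direction under both. The median log2 change was 0.06 over the 9 members and -0.04 over all genes tested. In Thrb-KO pituitary none of the 9 was called by limma, edgeR or DESeq2, although 3 had an unadjusted p below 0.05, and 0.411% of all genes were called higher and 0.601% lower. The median log2 change of the members there was -0.09, against -0.01 over all genes.

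**Figure D1:**
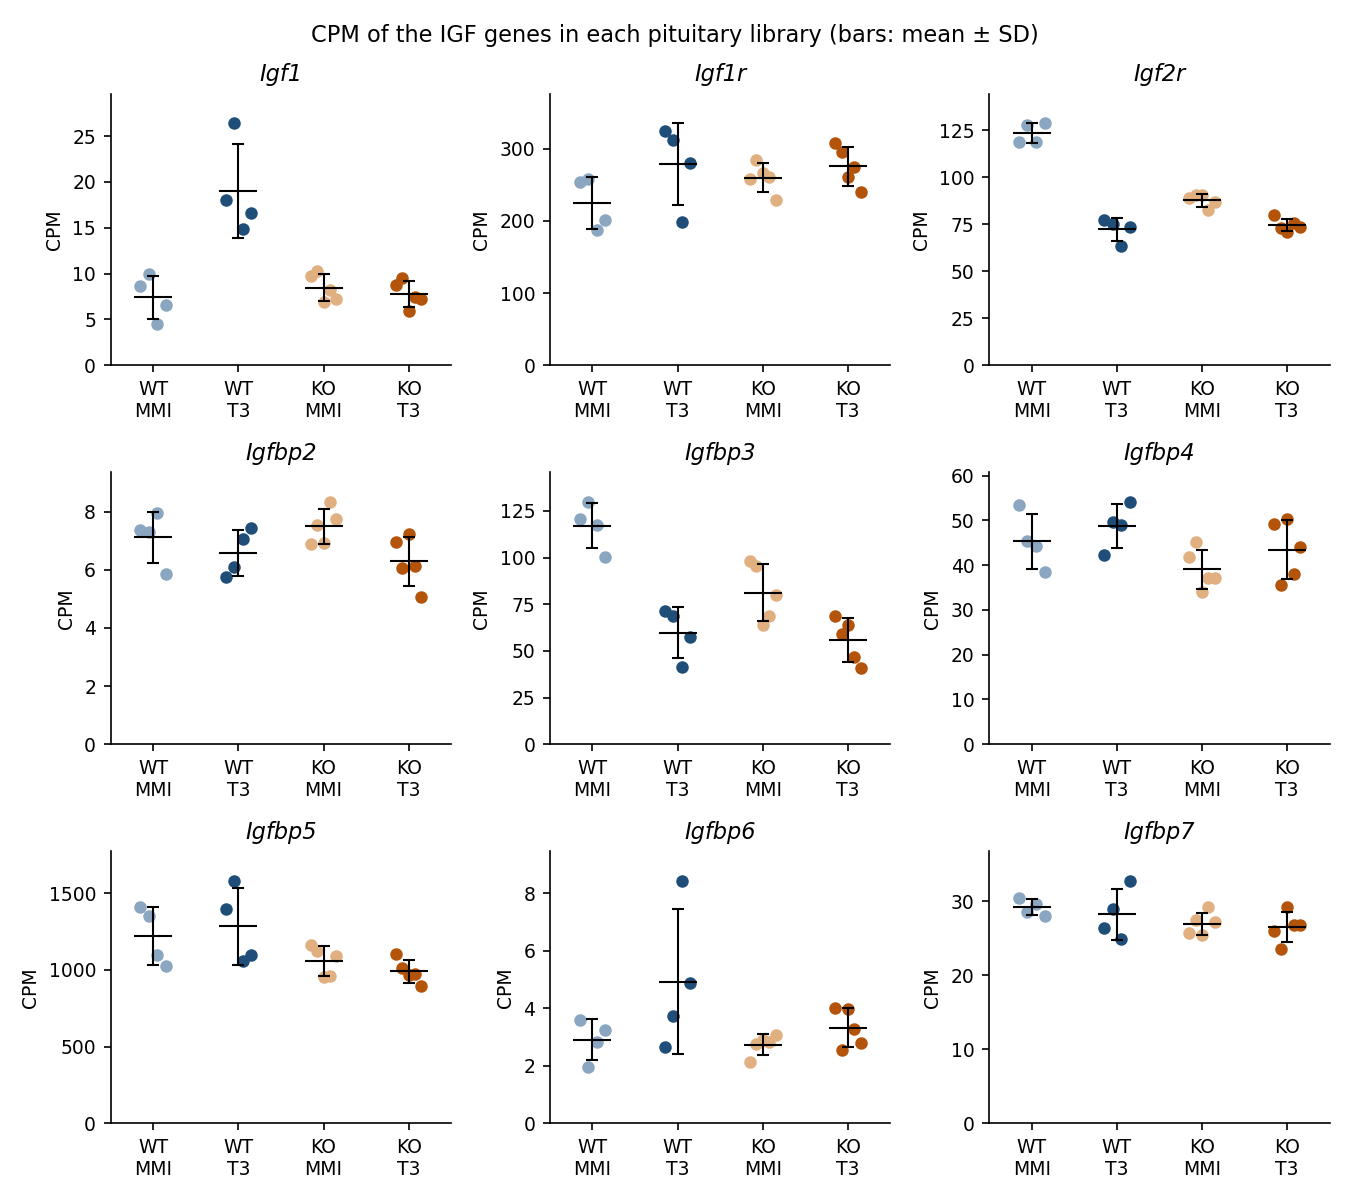
CPM (vertical axes, from 0) of the 9 IGF genes in each of the 18 pituitary RNA libraries, with points for libraries and bars for mean ± SD, in hypothyroid (MMI) and hyperthyroid (T3) wild-type (WT) and Thrb-KO (KO) mice. Igf1 is high in the hyperthyroid wild-type group alone, at 14.8 to 26.5 CPM, and Igf2r is highest in the hypothyroid wild-type group, at 118.9 to 128.9 CPM.

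Igf1, the ligand, was at 8.65, 9.91, 4.52 and 6.53 CPM in hypothyroid wild-type replicates 1 to 4 and at 17.97, 26.46, 14.84 and 16.62 CPM in the hyperthyroid ones. In Thrb-KO mice it was at 9.74, 10.28, 6.91, 8.15 and 7.23 CPM under MMI and at 8.72, 9.46, 5.91, 7.44 and 7.27 CPM with T3. Every hyperthyroid wild-type library lay above every other library of the series, and the remaining 3 groups overlapped one another. The log2 change with T3 was 1.26 ± 0.20 (SE) in wild type (limma adjusted p = 0.00015) and -0.11 ± 0.18 in Thrb-KO (adjusted p = 1). The difference between both responses was itself past the test, at -1.37 on the log2 scale with a 95% confidence interval of -1.95 to -0.80 (limma adjusted p = 0.0043). Genotypes differed under T3, where Igf1 in Thrb-KO was -1.17 ± 0.19 from wild type on the log2 scale (limma adjusted p = 0.00039), and under MMI the difference was 0.20 with an interval of -0.20 to 0.61. The wild-type T3 change was 1.15 within replicates 1 and 2 and 1.37 within replicates 3 and 4.

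The table listed 5 Igf1 transcripts, and the one used here was NM_010512. The transcripts NM_001111274, NM_001111275 and NM_001111276 gave wild-type log2 changes of 1.24, 1.26 and 1.24 with T3. NM_184052, which was listed at lower levels, rose by 0.90 ± 0.10 (limma adjusted p = 2.71e-06). Reads shared by these transcripts were counted for several of them, so they are not separate measurements. Igf2, the other ligand, was at 17.0 ± 4.14 CPM in hypothyroid and 17.2 ± 4.02 CPM in hyperthyroid wild-type libraries (SD, n = 4 each), with a log2 change of 0.01 ± 0.17 (limma adjusted p = 0.98).

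Igf2r, the mannose-6-phosphate receptor, was at 119.0, 127.9, 118.9 and 128.9 CPM in hypothyroid wild-type replicates 1 to 4 and at 77.2, 75.0, 63.7 and 73.6 CPM with T3. Thrb-KO libraries held 89.0, 90.8, 90.4, 82.5 and 86.8 CPM under MMI and 79.8, 73.0, 71.1, 75.6 and 73.4 CPM with T3. The hypothyroid wild-type libraries were the highest, the hypothyroid Thrb-KO libraries came next without overlap, and both T3 groups lay below and overlapped each other. In wild type Igf2r fell by 0.77 ± 0.07 on the log2 scale (limma adjusted p = 2.76e-07), -0.69 within replicates 1 and 2 and -0.85 within replicates 3 and 4. The change in Thrb-KO was -0.23 ± 0.06 (limma adjusted p = 0.082), with no overlap between the groups. The wild-type and Thrb-KO responses differed by 0.53 on the log2 scale, with an interval of 0.33 to 0.74 and a limma adjusted p of 0.0019, a difference under the 1.5-fold limit. Under MMI Igf2r in Thrb-KO differed from wild type by -0.49 ± 0.07 (limma adjusted p = 0.00013), also under that limit. With T3 the genotypes differed by 0.05, with an interval of -0.10 to 0.19.

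Igf1r, the signalling receptor, was at 253.6, 258.5, 187.9 and 201.2 CPM in hypothyroid and at 325.2, 312.7, 198.4 and 280.9 CPM in hyperthyroid wild-type replicates 1 to 4. Hyperthyroid replicate 3 fell among the hypothyroid values and the other 3 lay above them. The log2 change was 0.30 ± 0.14, with an interval of 0.00088 to 0.59 and a limma adjusted p of 0.17, and without hyperthyroid replicate 3 it was 0.45 (adjusted p = 0.0077), below 1.5-fold. Over 31 fits with another setting, by limma, edgeR or DESeq2, it was 0.21 to 0.45, with adjusted p from 0.0013 to 0.42, and stayed below 1.5-fold. Thrb-KO libraries ranged from 229.1 to 284.3 CPM under MMI and from 240.1 to 308.0 CPM with T3, a log2 change of 0.08 ± 0.13 (adjusted p = 1). The response did not differ between genotypes beyond the spread, at -0.21 with an interval of -0.61 to 0.18.

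**Figure D2:**
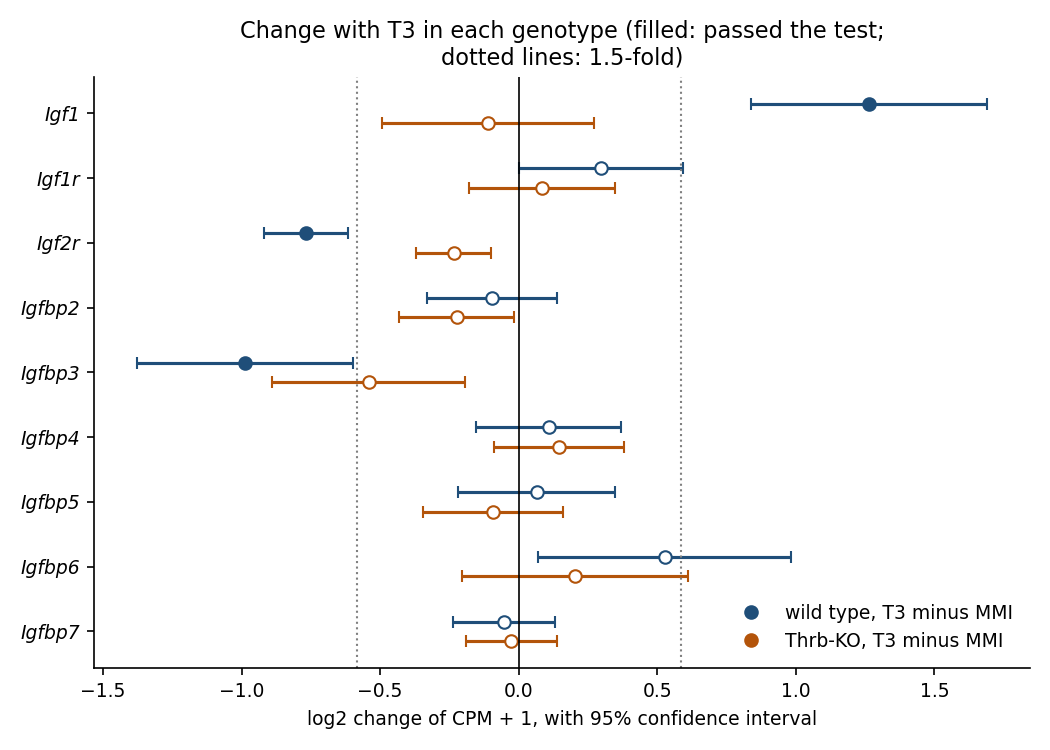
Log2 change of CPM + 1 with T3 (horizontal axis) for each IGF gene in wild type (blue) and Thrb-KO (orange), with 95% confidence intervals from limma and filled points where the test was passed. The 3 filled points are Igf1 (1.26), Igf2r (-0.77) and Igfbp3 (-0.99) in wild type.

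Of the binding proteins, Igfbp3, the main carrier of IGFs in serum, passed the test. It was at 120.6, 130.0, 117.4 and 100.5 CPM in hypothyroid wild-type replicates 1 to 4 and at 71.3, 68.8, 41.2 and 57.2 CPM with T3. Thrb-KO libraries held 98.1, 95.5, 63.9, 68.9 and 79.7 CPM under MMI and 68.6, 59.0, 63.8, 46.6 and 40.7 CPM with T3. Every hypothyroid wild-type library lay above every library of the other 3 groups, whereas the Thrb-KO groups overlapped. The wild-type log2 change was -0.99 ± 0.19 (limma adjusted p = 0.0007), -0.83 within replicates 1 and 2 and -1.14 within replicates 3 and 4. In Thrb-KO it was -0.54 ± 0.17 (limma adjusted p = 0.15). The responses differed by 0.45 with an interval of -0.08 to 0.97 (limma adjusted p = 0.47), so a difference between the genotypes in the Igfbp3 response was not shown. Under MMI the genotypes differed by -0.54 ± 0.18 (limma adjusted p = 0.081) and with T3 by -0.09 ± 0.18 (adjusted p = 0.79).

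Igfbp6, which prefers IGF2 as ligand, was at 3.60, 1.95, 2.82 and 3.23 CPM in hypothyroid and at 2.63, 3.71, 8.43 and 4.87 CPM in hyperthyroid wild-type replicates 1 to 4. With T3 replicate 1 lay within the hypothyroid range and the other 3 hyperthyroid libraries were above every hypothyroid one, with replicate 3 the highest. The log2 change was 0.53 ± 0.22 (limma adjusted p = 0.11), 0.17 within replicates 1 and 2 and 0.89 within replicates 3 and 4 (adjusted p = 0.010). It was 0.73 without hyperthyroid wild-type replicate 1 (adjusted p = 0.016) and 0.27 without hyperthyroid wild-type replicate 3 (adjusted p = 0.29), and DESeq2 gave 0.86 (adjusted p = 0.028). The Thrb-KO libraries ranged from 2.12 to 3.07 CPM under MMI and from 2.53 to 4.02 CPM with T3, a change of 0.20 ± 0.19.

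Igfbp5, the binding protein with the highest level of the 9, ranged from 1023 to 1413 CPM in hypothyroid and from 1059 to 1583 CPM in hyperthyroid wild-type libraries, and from 892.4 to 1163 CPM in all Thrb-KO libraries. Its change with T3 was 0.06 ± 0.13 in wild type and -0.09 ± 0.12 in Thrb-KO. With T3 the genotypes differed by -0.36 ± 0.13 (limma adjusted p = 0.080), and the groups overlapped. Igfbp2, Igfbp4 and Igfbp7 gave wild-type log2 changes of -0.10, 0.11 and -0.05 and Thrb-KO changes of -0.22, 0.14 and -0.03, none of which passed. Intervals of the wild-type changes were -0.33 to 0.14 for Igfbp2, -0.16 to 0.37 for Igfbp4 and -0.24 to 0.13 for Igfbp7. Igfbp2 lay between 5.08 and 8.35 CPM, Igfbp4 between 34.0 and 54.2 CPM and Igfbp7 between 23.5 and 32.8 CPM over all 18 libraries. Igfbp7, which binds IGFs weakly, shares 85 annotated exonic bases with Polr2b on the opposite strand, and no strand was kept in the libraries as far as the protocol states.

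Across the comparisons between genotypes, Igf1 under T3 was the 1 member called. Under MMI none of 9 was called by limma, edgeR or DESeq2 and 2 had an unadjusted p below 0.05, where 1.01% of all genes tested were called higher and 2.01% lower in Thrb-KO. Under T3 2.54% of all genes were called higher and 2.32% lower in Thrb-KO. For the difference of the T3 responses, which called Igf1, 2.48% of all genes had a higher and 1.78% a lower response in Thrb-KO. These splits also moved with scaling, from 334 higher and 305 lower to 239 and 389 with TMM factors and 289 and 504 by edgeR for genotype under T3, and from 326 and 234 to 252 and 324 with TMM factors for the responses, and Igf1 stayed called lower in both. The wild-type comparison and the comparison of responses share libraries, as do the genotype comparisons, so they are not independent of each other. Groups did not overlap for 3 of 9 members with T3 in wild type (17.4% of all genes), for Igf2r with T3 in Thrb-KO (5.58%), for Igf2r and Igfbp3 between genotypes under MMI (14.3%) and for Igf1 between genotypes under T3 (11.3%).

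Levels of different genes were compared per kb of the longest annotated coding transcript. In hypothyroid wild-type libraries Igfbp5 was highest at 203.4 ± 31.5 CPM per kb (SD, n = 4), followed by Igf1r at 53.9 ± 8.60 and Igfbp3 at 48.4 ± 5.08, which did not differ beyond their spread. Igfbp7 at 24.0 ± 0.88 and Igfbp4 at 21.7 ± 2.95 overlapped as well, and Igf2r followed at 13.9 ± 0.62 and Igfbp2 at 5.44 ± 0.67. Igfbp6 at 2.61 ± 0.63 and Igf1 at 1.04 ± 0.33 were lowest. With T3 in wild type Igf1 reached 2.66 ± 0.72 CPM per kb, and Igfbp3, at 24.6 ± 5.66, came to the level of Igfbp4 and Igfbp7. The order rests on annotated lengths, which need not be the lengths transcribed in the pituitary. Counts were on RefSeq transcripts and lengths came from GENCODE, so they need not cover the same bases. The length used for Igf1r was 4181 bases.

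**Figure D3:**
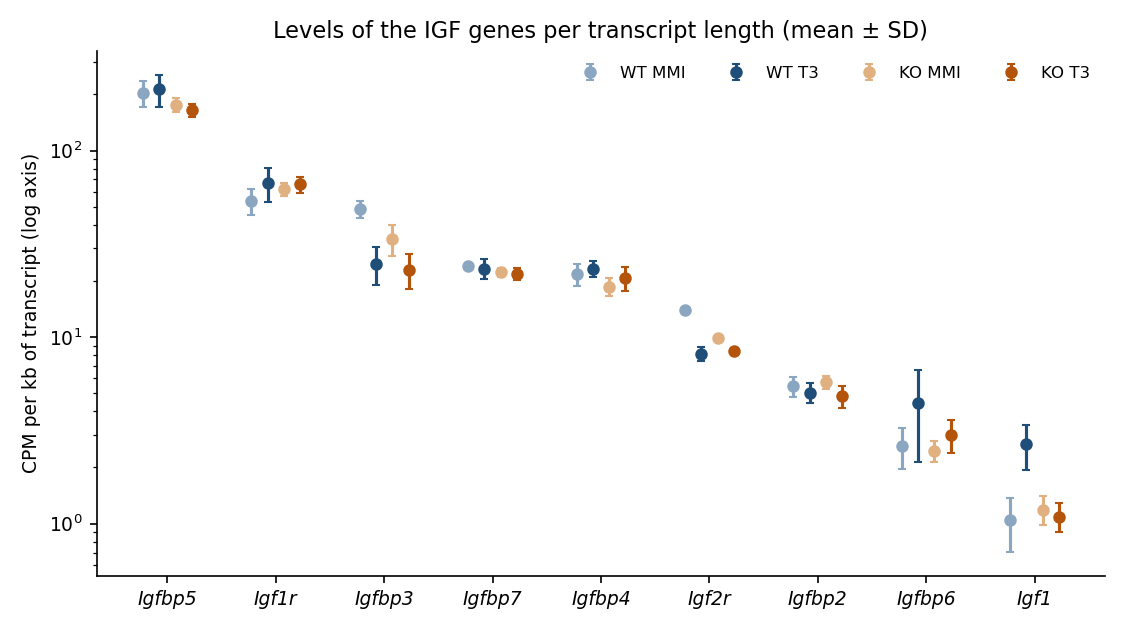
Level of each IGF gene in CPM per kb of transcript (log axis) in the 4 groups, as mean ± SD, ordered by the hypothyroid wild-type mean. Igfbp5 lies at the top at 203.4 and Igf1 at the bottom at 1.04 in that group. Igf1 stands apart in hyperthyroid wild type, and Igf2r and Igfbp3 stand apart in hypothyroid wild type.

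Other genes of the pathway came from lists of 62 genes by role, of which 58 were tested. With T3 in wild type 4 rose and 4 fell, where 3.87% of all genes tested were called higher and 5.59% lower, and their median log2 change was -0.04, like the -0.04 over all genes tested. Among 8 genes of GH signalling 3 rose, against that 3.87% of all genes: Gh itself by 1.03 ± 0.21 (limma adjusted p = 0.0017), the receptor-bound kinase Jak2 by 1.02 ± 0.11 (adjusted p = 2.15e-06) and the feedback inhibitor Cish by 0.85 ± 0.13 (adjusted p = 9.42e-05). Jak2 did not overlap, at 44.5 to 48.2 CPM under MMI and 68.5 to 111 CPM with T3 in wild type, and its response differed between genotypes by -1.08 ± 0.15 (limma adjusted p = 0.0002). Cish rose in Thrb-KO also, by 0.72 ± 0.12 (limma adjusted p = 0.0012). The GH receptor Ghr changed by 0.23 ± 0.13 with T3 in wild type (limma adjusted p = 0.25).

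Of 11 adaptors and brakes of the receptors, 3 fell with T3 in wild type, where 5.59% of all genes did. Irs4, an insulin receptor substrate, went from 359.4 ± 21.0 to 80.4 ± 25.2 CPM (SD, n = 4 each), a log2 change of -2.20 ± 0.17 (limma adjusted p = 2.53e-08). In Thrb-KO it fell by 0.93 ± 0.15 (limma adjusted p = 0.0013), and the responses differed by 1.27 ± 0.23 (limma adjusted p = 0.0019). Irs1, another such substrate, fell by 0.81 ± 0.20 (limma adjusted p = 0.0075) and Grb14, an adaptor that inhibits the insulin receptor, fell by 0.63 ± 0.11 (adjusted p = 0.00056). Among 23 genes of PI3K, AKT and mTOR signalling, the kinase Akt2 rose by 1.01 ± 0.10 (limma adjusted p = 1.05e-06), and none of the 8 RAS and MAPK genes tested was called.

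Of 6 proteases of IGFBPs and their inhibitors, Stc1, whose product inhibits pappalysin proteases, fell by 1.09 ± 0.13 with T3 in wild type (limma adjusted p = 4.91e-06), from 5.03 to 7.36 CPM under MMI to 1.62 to 2.94 CPM. Its response differed between genotypes by 0.72 ± 0.17 (limma adjusted p = 0.017). The IGFBP-cleaving protease Pappa2 was higher in Thrb-KO than in wild type under T3 by 0.70 ± 0.21 (limma adjusted p = 0.038), and its wild-type T3 change was -0.64 ± 0.23 (adjusted p = 0.057). Igfbp1 and Igfals, the remaining binding-protein genes on the list, and the insulin receptor-related gene Insrr did not reach the CPM limit in all libraries.

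**Figure D4:**
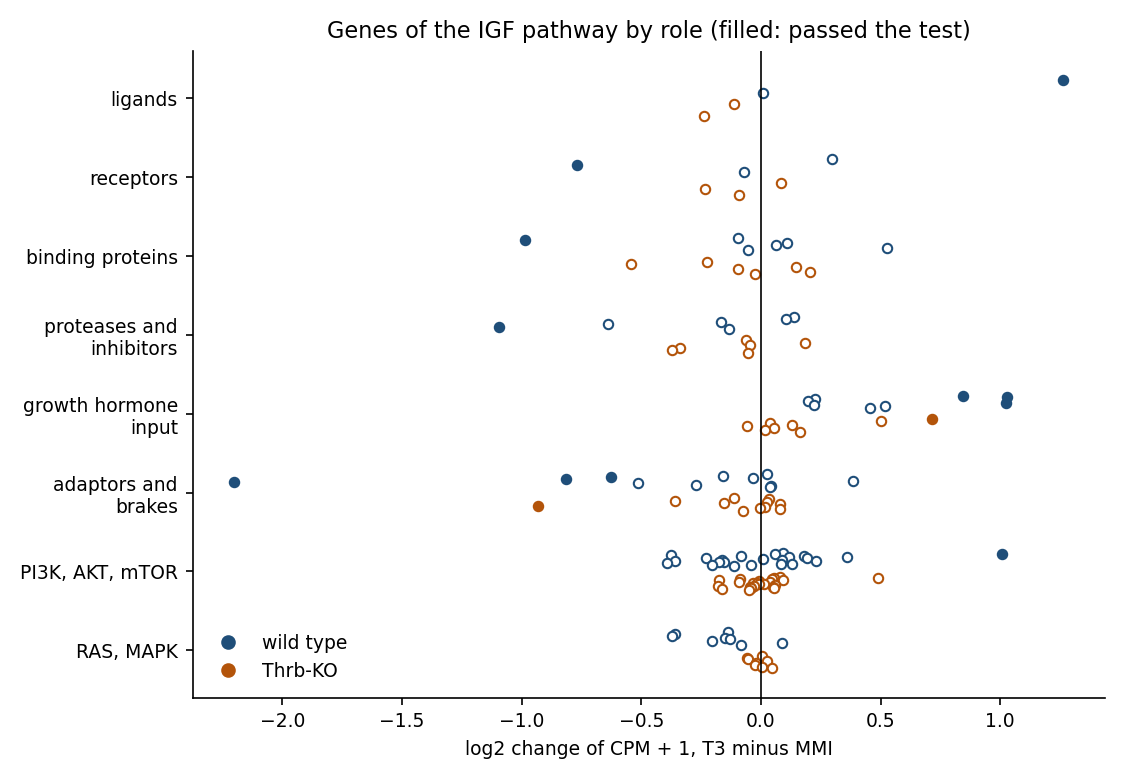
Log2 change of CPM + 1 with T3 (horizontal axis) of the tested genes of the IGF pathway, by role, in wild type (blue) and Thrb-KO (orange), filled where the test was passed. Filled points in wild type run from Irs4 at -2.20 to Igf1 at 1.26, and the PI3K, AKT and mTOR genes other than Akt2, none of them called, run from -0.39 (Rheb) to 0.36 (Gsk3b) in wild type.

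For each member called in any comparison, the genes most like it over the 18 libraries were taken by Pearson correlation of log2(CPM + 1). For Igf1 these were Elovl7 (r = 0.94), A430107O13Rik (r = 0.94) and Inpp1 (r = 0.94), for Igf2r Sparc (r = 0.97), Cx3cl1 (r = 0.97) and Slc7a8 (r = 0.96), and for Igfbp3 Man1a (r = 0.95), Eps8 (r = 0.95) and Cnnm2 (r = 0.94). With group means taken out, the correlations were 0.75 to 0.89 for the Igf1 genes, 0.39 to 0.56 for the Igf2r genes and 0.82 to 0.87 for the Igfbp3 genes. The libraries share treatment groups and library sets, so the correlations are descriptions.

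Genes on some marker lists of pituitary cell types changed with T3 beside the members. No tested marker of gonadotroph, corticotroph and melanotroph, stem and folliculostellate or posterior-lobe cells was called with T3 in either genotype. Tshb and Cga, which encode the subunits of thyrotropin, fell with T3, with log2 changes of -4.95 and -2.55 in wild type and -4.83 and -2.11 in Thrb-KO, and Prl, the lactotroph hormone, rose by 1.70 and 1.63. Beside the fall of Igfbp3 and Igf2r, the stroma markers Col1a1 (-0.73, limma adjusted p = 0.014) and Col3a1 (-0.62, adjusted p = 0.015) fell in wild type, 2 of 9 on the list, whose summed level was 405.4 to 599.5 CPM under MMI and 317.3 to 588.5 CPM with T3. None of the 7 others passed, with Dcn (0.34), Pdgfra (0.18) and Lum (0.11) higher and Rgs5 (-0.03) little changed. Mean CPM in wild type was lower with T3 for Col1a2 (165.4 to 134.6), Pdgfrb (39.8 to 34.1) and Acta2 (4.04 to 3.23), with overlapping libraries. In Thrb-KO Col1a1 (-0.57) and Col3a1 (-0.58) did not pass either. No member of the endothelial list of 7, summed at 204.4 to 321.1 CPM under MMI and 156.9 to 309.7 CPM with T3, was called in wild type. Nor was any of the 5 immune markers tested, the list summing to 95.4 to 113.3 and 68.9 to 124.3 CPM. Under MMI 3 of these 5 (C1qa, C1qb and Csf1r) were lower in Thrb-KO, where the list summed to 54.7 to 66.1 CPM. Igf2r and Igfbp3 there were also below every hypothyroid wild-type library. Also called lower in Thrb-KO under MMI were 1 of 9 stroma markers, Col1a2 (mean 105.0 against 165.4 CPM), and 1 of 4 corticotroph and melanotroph markers, Pcsk2 (253.5 against 404.6 CPM). No other gene of these lists was called there. Mean CPM of the other stroma markers was higher in Thrb-KO for Dcn and Lum and near equal for Pdgfra. It was lower for Col1a1, Col3a1, Pdgfrb, Acta2 and Rgs5. The list of 4 red blood cell markers, in which the near-identical Hba-a1 and Hba-a2 hold the same values, summed to 49.3 to 90.1 CPM under MMI and 110.6 to 126.2 CPM with T3 in wild type, without overlap, and to 42.5 to 100.9 and 43.8 to 139.6 CPM in Thrb-KO, and none of the 4 was called with T3 in either genotype. The part of these cell types in the values of the members was not tested.

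TRβ peaks lay within 20 kb of 3 members in the untreated pituitary list, Igf1, Igf1r and Igfbp4, where 41.3% of 12898 tested genes with coordinates had one. The cortex list had one near 2 members, Igf1r and Igfbp7 (34.9% of genes), and the list of T3-regulated ATAC regions had one near Igf1r (7.79% of genes). Peaks were called on pooled libraries, so their reads have no replicate error. The genes whose RNA fell, Igf2r (chr17:12875272-12962530) and Igfbp3 (chr11:7106089-7113926), had no pituitary TRβ peak and no T3-regulated ATAC region within 100 kb. Neither had Igfbp5 (chr1:72904506-72921458), Igfbp2 (chr1:72871077-72899048) or Igfbp7 (chr5:77778265-77837070). The share of all genes with a peak or region within 100 kb was not computed. This TRβ list is from untreated mice, and TRβ peaks under MMI or T3 were not used here.

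The Igf1 peak (chr10:87376401-87376500, sequence above) lay 55440 bp into the gene, wholly inside coding exon 3 of the 4 exons of the transcript with the longest coding sequence, which spans chr10:87376364-87376545. It held 10 HAB reads against 0 BirA reads (deposited FDR 1.26e-13), and 2.27% of the 8051 pituitary peaks had 10 reads or fewer. In all, 0.696% of pituitary peaks lay wholly inside a coding exon. It overlapped no cortex peak and no T3-regulated ATAC region, and it held no DR4 match. The Igfbp4 peak (chr11:98907601-98908000) was in intron 1 with 14 reads against 2 and a deposited fold of 5.84.

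Igf1r (chr7:75097713-75371484) carried 5 pituitary peaks, all intronic, as many as or more than which 1.06% of genes tested carried within 20 kb. Igf1r is long, and of the 775 genes of at least 200 kb 8.77% carried as many. The intron 2 peaks, at 86112, 122262 and 175212 bp from the start, held 20 reads against 3, 21 against 1 and 16 against 0. The intron 15 peak (chr7:75348151-75348700), 250712 bp from the start, held 58 reads against 5, more than 94.6% of pituitary peaks. The intron 20 peak (chr7:75368251-75368550), 270687 bp from the start, held 41 against 3, more than 88.4%. Both of the latter overlapped a T3-regulated ATAC region. The region over the intron 15 peak (chr7:75348136-75348637) had the deposited adjusted p 2.05e-34, which ranked 7 among 1776 regions, and the one over intron 20 had 0.00083. Another such region (chr7:75462788-75463223, adjusted p 7.76e-07) lay 91304 bp beyond the gene's end on a pituitary peak with 70 reads against 7. The list gives no direction for a region. In cortex, Igf1r had a peak 413 bp upstream of the gene (10 reads against 0) and one in intron 2 (16 against 3), neither of which overlapped a pituitary peak.

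**Figure D5:**
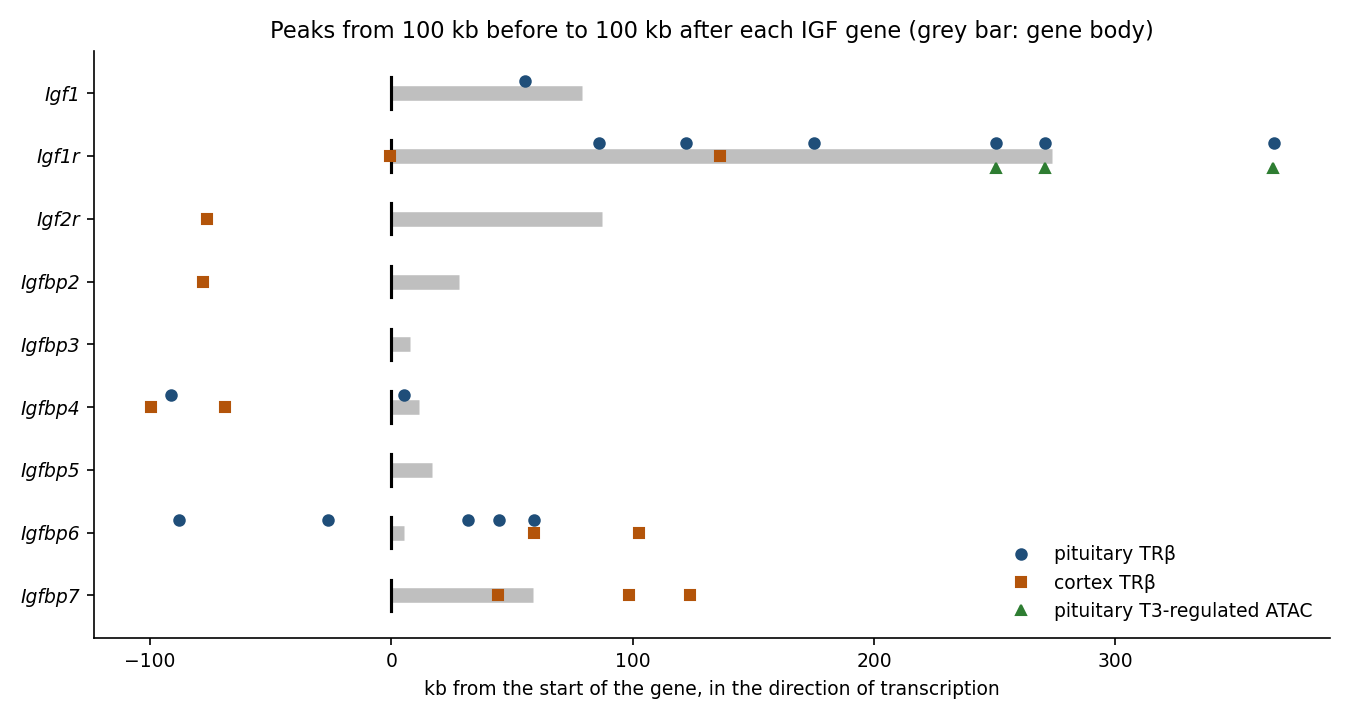
Peaks up to 100 kb either side of each IGF gene by distance from its start in kb (horizontal axis), with the gene body in grey, pituitary TRβ peaks as circles, cortex TRβ peaks as squares and T3-regulated ATAC regions as triangles. All 3 ATAC regions, 1 of them beyond the gene, sit on pituitary peaks at Igf1r, and Igfbp3 and Igfbp5 have no peak of any list.

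DR4 matches at 10 or more of 12 bases, sought on both strands, were in 1 of the 7 pituitary peaks within 20 kb of the members, where 20.9% of all pituitary peaks held one. This was the intron 15 peak of Igf1r, whose ATAC region holds the same match, as 30.9% of T3-regulated ATAC regions hold one. In cortex, where 9.3% of peaks held one, the Igfbp7 peak matched at 11 bases. Igfbp6 (chr15:101974793-101979942) had no peak within 20 kb, and the nearest pituitary peaks lay 26093 bp before the gene (17 reads against 2) and 26209 bp after it (51 against 2). A match is a description of the letters and not a binding site.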

How the data were processed

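The authors deposited RNA-seq values as CPM for 29082 RefSeq transcripts. At least 99.99587% of values were whole numbers of reads within 0.05, so read counts were recovered for edgeR and DESeq2 only. The authors' TRβ lists give counts of reads in HAB and BirA libraries pooled over replicates, a fold (ratio), a p-value and an FDR from SICER 1.1 on mm9, and the deposited ATAC list gives adjusted p-values from their comparison of treatments. The submitters' processing notes also name Bowtie2, STAR, MACS2 and edgeR.

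Members are the 9 genes named in the report, and they and all gene lists were chosen with earlier results of these data known. The 13145 genes past 1 CPM in every one of the 18 libraries were fitted by limma 3.58.1 (R 4.3.3) on log2(CPM + 1), a scale that understates changes of low genes, with all 4 groups in 1 fit and Benjamini-Hochberg adjustment over all genes. A call needed an adjusted p below 0.05 and a 1.5-fold change, the study's fold limit. limma replaced the study's test of single genes. Named genes were the members, Thrb, Gh, pathway genes called in the wild-type T3 comparison or in the difference of responses, and the 3 most correlated genes of each called member. Other pathway and marker genes named beside them were chosen after their values were seen. Same-numbered libraries of 2 groups correlated in their deviations from group means (r = 0.26 to 0.82). The best match often carried another number, however. Hypothyroid wild-type replicate 3 correlated best with hyperthyroid replicate 4, and replicate 4 with replicate 3. The numbers, taken from the titles, were thus not shown to pair the samples, and a replicate block was fitted as an alternative only. RNA replicates are separate pools of 3 pituitaries per the methods. Alternatives were edgeR 4.0.16 with TMM, DESeq2 1.42.0, pseudocounts, filters, transcripts, library sets, leaving out each library, and peak distances and thresholds. Genes and sequences came from GENCODE vM1 and NCBIM37 (mm9), with pysam 0.24.0. Histone-mark and T3-treated ChAP-seq samples were not used here.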

Additional observations from a re-analysis of the deposited data

Results flagged for a closer look

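The T3 response of 2 members differed between genotypes by the test of the difference itself in limma. For Igf1 the response in Thrb-KO minus that in wild type was -1.37 on the log2 scale (adjusted p = 0.0043), from 1.26 in wild type and -0.11 in Thrb-KO, with Igf1 higher in 4 of 4 hyperthyroid wild-type libraries than in every hypothyroid one. For Igf2r it was 0.53 (adjusted p = 0.0019), from -0.77 in wild type and -0.23 in Thrb-KO, a difference under the 1.5-fold limit. Among 36 groups of values of the members, none held a library past Dixon's critical value, where about 1 in 20 groups would be past it by chance.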

How the results depend on the processing

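Over 31 fits with another setting, Igf1, Igf2r and Igfbp3 with T3 in wild type kept their direction and their call, with log2 ranges of 1.08 to 1.44, -0.85 to -0.67 and -1.14 to -0.82, as did Igf1 for the difference of responses (-1.55 to -1.19) and for genotype under T3 (-1.36 to -1.01). No called value changed sign, and 56 signs changed among member values that were not called. The replicate block, which pairs same-numbered libraries, left 3 members called with T3 in wild type and changed no member's call in any comparison, and it gave 1294 genes called there against 1244, and 753 against 560 for the difference of responses. Replicates 1 and 2 alone called Igfbp3 with T3 in Thrb-KO (1 member, log2 change -0.60), where 199 genes were called against 133. Replicates 3 to 5 alone called 4 members with T3 in wild type (Igfbp6 added), 2 for the difference of responses (Igf2r added) and 2 for genotype under T3 (Igfbp6 added). They called 1508 genes with T3 in wild type against 1244, and 524 for the difference of responses against 560. For genotype under MMI and T3 they called 628 and 1114 genes against 397 and 639. With no fold limit 2536 genes were called with T3 in wild type against 1244, 235 in Thrb-KO against 133, 901 and 1586 for genotype under MMI and T3, and 718 for the difference of responses. Members called without that limit were 2 for the difference of responses (Igf2r added) and 1 for genotype under MMI (Igf2r). edgeR with TMM and the library set as a covariate, chosen after seeing the data, called Igfbp6 as well (log2 change 0.77, adjusted p = 0.033), among 1503 genes with T3 in wild type. That fit called 200, 894 and 656 genes for T3 in Thrb-KO, the difference of responses and genotype under MMI. Leaving out each library in turn gave 3 to 4 members with T3 in wild type, 0 to 0 in Thrb-KO and for genotype under MMI, and 1 to 1 for the difference of responses and for genotype under T3, with 1176 to 1334, 113 to 142, 483 to 698, 331 to 440 and 614 to 705 genes for T3 in wild type, T3 in Thrb-KO, the difference of responses, and genotype under MMI and T3. Within 100 kb 6 members had a cortex TRβ peak against 2 within 20 kb, and the share of all genes at 100 kb was not computed. Requiring overlap of at least a 50% share of the ATAC region left 1 of 2 overlaps, that of intron 15. At most 1 mismatch left 0 of 7 pituitary peaks with a DR4 match and at most 3 gave 4. The cause of these differences was not tested. Counting error limits Igfbp6 most, at 60 to 208 reads.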
